A study of Drosophila melanogaster with 6 samples.

Results

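The subject here is a set of 79 fly genes that carry only a serial CG number and whose signals lay clearly lower in flies driven to make an antimicrobial peptide than in the undriven stock. The genes were read by 80 probe sets, chosen from these same values: each is annotated to 1 gene with a current symbol of the form CG followed by digits, its lowest signal in the 3 control samples was at least 1.3 times its highest signal in the 3 samples of the cross, and its mean control signal was 300 or more. Of 18769 probe sets on the array, 5595 read 1 CG-numbered gene and 4210 of those reached that mean signal, so the members are 1.9% of the probe sets that could qualify. In genes, the 79 are out of 4011 at that signal and 5143 CG-numbered genes in all. Because the contrast chose the members, every difference below between cross and control is a description with no test.

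The cross was of da-GAL4, in which the promoter of daughterless, active in most cells, drives the yeast activator GAL4, to a UAS-AMP line, in which an antimicrobial peptide transgene waits for that activator. The control was the UAS-AMP stock alone, not crossed to da-GAL4, so both groups carry the transgene, and the cross differs by the driver and by the chromosomes that came with it. Drive of the peptide and the genetic background of the driver stock therefore cannot be told apart here, and flies with the driver alone were not analysed here. Each of the 3 samples per group was total RNA of 25 male and 25 female whole adults on 1 Affymetrix Drosophila Genome 2.0 array. The labels name neither the peptide nor the age of the flies, and do not say whether samples came from separate cultures, and the number of arrays limits the precision of every value below.

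CG numbers are serial names that the fly genome project gave to predicted genes, and a gene keeps its number as its symbol until someone names it for a phenotype or a function. Many such genes belong to large families of secreted, digestive and metabolic enzymes that expanded by tandem duplication, so close relatives often sit side by side on a chromosome. Antimicrobial peptides are made mainly by the fat body, an organ that also stores lipid and carbohydrate, and by epithelia such as the gut.

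Over the 80 probe sets the median log2 fold change, cross minus control, was -0.93 (range -3.06 to -0.50, the low end uncertain because it rests on signals near background), beside medians of -0.04 over all 18769 probe sets and 0.04 over the 4210 CG-numbered probe sets at that signal. The mean signal in the cross was lower than the control mean by a median of 48.0% (29.1% to 86.0%), and in 31 probe sets by at least 50%. The gap, meaning the lowest control signal divided by the highest signal of the cross, had a median of 1.40 and a highest value of 5.28; it was at least 2 in 9 probe sets, between 1.5 and 2 in 20, and below 1.5 in 51. The same limits turned round, with the lowest cross signal at least 1.3 times the highest control signal, were met by 58 CG-numbered probe sets, or 1.4% of the 4145 that could qualify. Among genes with a proper name, 173 of 6431 probe sets, or 2.69%, met the downward limits. The balance of downward to upward CG-numbered probe sets rested on the scaling: it was 80 to 58 with the deposited signals, 55 to 64 after quantile scaling and 51 to 60 after centring each array on its median. A total of 38 members met the limits under all of these scalings, among them all 15 with the widest gap. Without cross replicate 2, cross replicate 3 or control replicate 3 the limits, which are easier to meet with fewer arrays, were met by 134, 158 and 191 CG-numbered probe sets.

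In the fit across the whole table (limma with a constant prior, p-values adjusted by Benjamini-Hochberg), no probe set passed an adjusted p of 0.05, so 0 members and 0.0% of all probe sets were called, while 2070 probe sets had an unadjusted p under 0.05. With a prior that follows the signal, 22 of the 80 members were called lower, against 0.474% of all probe sets, a count from which nothing is read because the members were chosen on this contrast. Median signals of all probe sets were 752 to 889 on the arrays of the cross and 835 to 847 on the control arrays, and correlations of log2 signals were 0.946 to 0.958 within groups and 0.945 to 0.953 between them.

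The widest gap belonged to CG6283, a triacylglycerol lipase of a tandem lipase group, which is a kind of enzyme that releases fatty acids from fat. Its signals were 517, 470.4 and 295 in the cross, against 3326, 3078 and 2732 in control flies. All 3 cross signals were below 1 in 5 of the lowest control signal, with a log2 fold change of -2.87 ± 0.25 (SE). CG7900, of the fatty acid amide hydrolase family, whose enzymes cleave fatty acid amides, had signals of 674, 775 and 877 in the cross and 3111, 2441 and 2881 in the control, a log2 fold change of -1.86 ± 0.17. CG3397, an aldo-keto reductase, which is an enzyme that reduces aldehydes and ketones, had 217, 290 and 435 in the cross and 1197, 1129.5 and 1117 in the control. Its control signals lay close together, its cross signals were more spread, with replicate 1 the lowest, and the log2 fold change was -1.93 ± 0.27.

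CG13313, for which no class is given here, had signals of 124, 177 and 185 in the cross and 514, 433 and 956 in the control, where replicate 3 stood highest. CG17147, a secreted protein with chitin-binding domains of the kind found in the lining of the gut, had 80.1, 134 and 150.4 in the cross, against 425, 458 and 350.3 in the control. The lowest of its cross signals lay at or below background, taken as the 95th percentile of the 27 Bacillus control probe sets on the same array (90.3 to 123). CG11893, listed in the gene table among the ecdysteroid kinase-like proteins, which resemble kinases that phosphorylate steroid hormones, had 1006, 803 and 752 in the cross, against 3737, 2279.8 and 2559 in the control. In each of these 3 genes the cross signals spread over less than the distance from the highest of them to the lowest control signal.

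CG13325, a membrane acyltransferase of the nose resistant to fluoxetine family, gave 109, 136 and 157 in the cross and 656, 539 and 349 in the control. CG7912, an anion transporter of the SLC26 family, gave 287, 394 and 367 in the cross and 878, 842 and 894 in the control, with a log2 fold change of -1.33 ± 0.16. The control signals of CG7912 were nearly level, and those of CG13325 were spread more widely, with replicate 3 the lowest. CG10352, with no class given here, gave 92.2, 196 and 49.7 in the cross and 535, 546 and 414 in the control. On 2 of the cross arrays its signal was at or below background, where differences in signal are least certain, and the log2 fold change was -2.35 ± 0.51. Across all members, 9 had such a signal on 1 or 2 of the cross arrays and 0 had it on all 3.

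**Figure D1:**
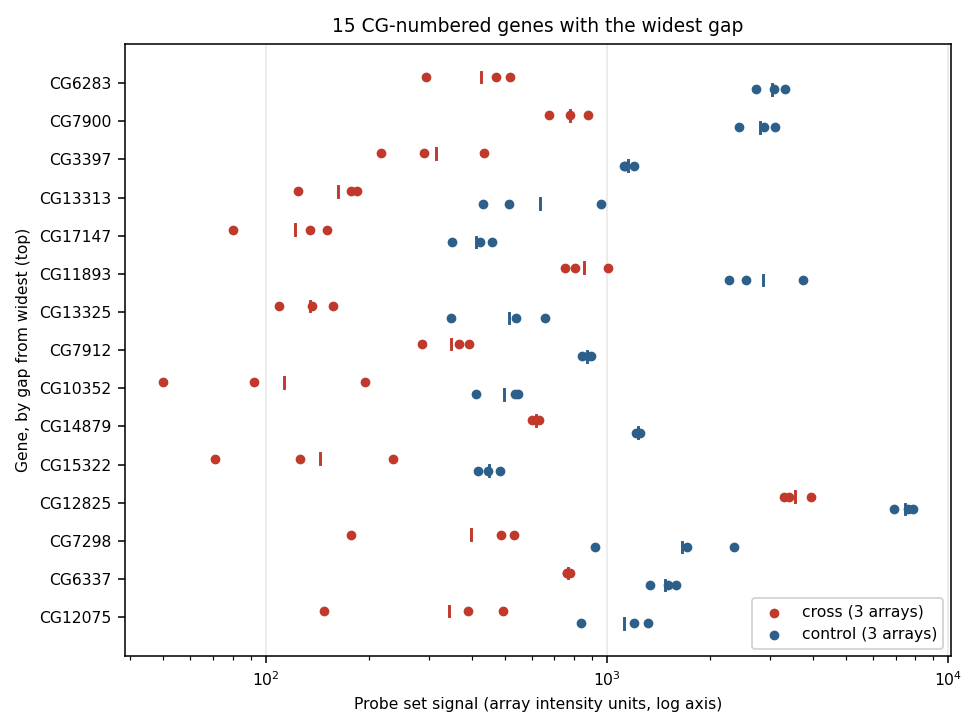
Signal of each array (x axis, array intensity units, log scale) for the 15 CG-numbered genes with the widest gap, ordered from the top, with cross arrays in red above and control arrays in blue below, and a vertical tick at each group mean. CG6283 stands at the top with a gap of 5.28, and the gap of CG12075 at the bottom is 1.69.

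The other genes of the leading 15 had gaps of 1.69 to 1.93. CG14879 was the most even of them, with 619, 629.5 and 601 in the cross and 1246, 1229 and 1215 in the control, so that the signal in the cross was about 49.9% lower. CG15322 had 126, 71.0 and 235 in the cross and 417, 446 and 484 in the control, and its lowest cross signal was within background. CG12825 had 3402, 3300.2 and 3942 in the cross and 7636, 7894 and 6918 in the control, a log2 fold change of -1.08 ± 0.14. None of these 3 is given a class here. CG14879 and CG12825 had tight groups, whereas the cross signals of CG15322 were spread widely.

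CG7298, a chitin-binding secreted protein like CG17147, had 177, 488 and 534 in the cross and 1712, 2345 and 919 in the control, and its log2 fold change of -2.10 ± 0.56 had the largest SE of the 15 genes. CG6337, a cysteine peptidase of the cathepsin L type, which degrades proteins in lysosomes or in the gut, was far tighter, with 763, 761 and 778 in the cross and 1333, 1594 and 1506 in the control. CG12075 was the only gene with more than 1 member probe set. The first gave 148, 390.3 and 494 in the cross and 1197, 1318 and 835 in the control, and the second 277, 309 and 106 in the cross and 412, 475 and 529 in the control, so both separated the groups, the second with 1 cross signal at or below background, with log2 fold changes of -1.84 ± 0.50 and -1.17 ± 0.44.

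Protein classes were given to 31 of the 79 genes, 10 from names in the gene table and the others from textbook knowledge of the family, and 48 genes were left without a class. Classes were given to members only, so no share over all measured CG-numbered genes stands beside these counts, and no theme is read from them. The largest class given was of enzymes that act on lipids and acyl groups, with 8 genes and a median log2 fold change of -1.52. Beside CG6283, CG7900 and CG13325 it held CG4830, an enzyme of the acyl-CoA synthetase and luciferase family, which activates fatty acids. CG4830 had 941, 1331 and 2486 in the cross and 6757, 6736 and 4007 in the control, and within the cross replicate 3 was well above replicate 1. The other 4 were CG17544, a peroxisomal acyl-CoA oxidase that starts fatty acid breakdown in that organelle, the lipase family member CG10116, the phospholipase A2 gene CG42237 and the CoA transferase gene CG7920. Their log2 fold changes were -0.58 ± 0.14, -0.64 ± 0.15, -0.76 ± 0.23 and -1.18 ± 0.29. None of these 4 met the limits under both of the other scalings, as CG17544 met them only after quantile scaling, CG7920 only after median centring, and CG10116 and CG42237 under neither.

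Secreted proteins with chitin-binding or fibrinogen-related domains made up 4 genes with a median log2 fold change of -1.95. The fibrinogen-related proteins, lectins of which several bind microbes in other insects, were CG31832 and CG41520. CG31832 had 24.3, 24.0 and 157 in the cross and 264, 461 and 468 in the control, a log2 fold change of -3.06 ± 0.80. As 2 of its cross signals lay at or below background, this size is uncertain: it was -3.94 without cross replicate 3, -2.61 without cross replicate 2 and -2.62 with a pseudocount of 16 in place of 1, where CG6283 was at -2.96 without cross replicate 2 and -2.82 with that pseudocount. CG41520 had 113, 99.2 and 152 in the cross, with 1 signal at or below background, and 333, 344 and 225 in the control, and it met the limits under neither of the other scalings. CG7298, CG17147 and CG31832 met them under both. All control signals of CG31832 and CG41520 lay above background, and in both genes no cross signal reached the lowest control signal.

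Transporters made up 5 genes with a median log2 fold change of -0.80. CG43066 and CG13794 belong to the SLC6 family of sodium-coupled carriers of amino acids and transmitters. CG43066 had 2103, 2214 and 1895 in the cross and 4731, 4511 and 3502 in the control, whereas CG13794 had 969, 984 and 807 in the cross and 1395, 1289.7 and 1432 in the control. The major facilitator gene CG32054 had 640.1, 571 and 674 in the cross and 1156, 1022 and 1090.4 in the control. CG18549, of the UNC93 type and listed under the synonym MFSD11, lay just inside the limit with a gap that rounds to 1.3. CG18549 met the limits under neither of the other scalings and CG13794 only after quantile scaling. In CG43066 and CG32054 every cross signal was below 2 in 3 of every control signal.

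Small-molecule kinases numbered 3. Beside CG11893 they were CG31087, also ecdysteroid kinase-like, with 1349.5, 1430.2 and 1423 in the cross and 1979.6, 1911 and 2135 in the control, and CG1271, a glycerol kinase family member that would pass glycerol into lipid and sugar metabolism, with 910.1, 1044 and 1029 in the cross and 1527, 1463 and 1809 in the control. Peptidases and their homologues also numbered 3. Beside CG6337 these were CG6067, with 2446, 2596 and 2792 in the cross and 4348, 4382 and 4082 in the control, and CG17572, with 462, 403 and 412 in the cross and 624, 643 and 782 in the control. Both are listed in the gene table under serine protease homologue names. The groups of all these genes stood apart by less than those of CG11893. Under the other scalings CG31087 and CG17572 met the limits in neither and CG1271 only after quantile scaling, so that CG11893, CG6337 and CG6067 met them in both.

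Proteins that act on nucleic acids or chromatin were the last class of 3. CG6839, a non-specific nuclease of DNA and RNA, had 1999, 2827 and 4333 in the cross and 8363, 7014 and 7839.9 in the control. Its cross signals were spread widely, with replicate 1 the lowest, and its control signals were close together. CG1894, a histone acetyltransferase of the MYST family, had 3863, 3789 and 3105 in the cross and 7361, 8015 and 5264 in the control, and the zinc finger gene CG9932 had 3993, 4576 and 4216 in the cross and 8168, 8158 and 6271 in the control. In CG1894 replicate 3 was the lowest array in both groups. The remaining classified genes were the short-chain dehydrogenase gene CG31809, at -0.85 ± 0.19 on the log2 scale, the receptor guanylyl cyclase gene CG34357 at -1.37 ± 0.31, the HIG1 family gene CG11825 at -0.99 ± 0.17 and the iron-sulfur assembly gene CG13623 at -0.52 ± 0.12. CG11825 and CG13623 were the 2 genes classed as mitochondrial. Of the genes in this paragraph CG6839, CG9932 and CG11825 met the limits under both other scalings, CG1894 and CG13623 only after quantile scaling, and CG31809 and CG34357 only after median centring.

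**Figure D2:**
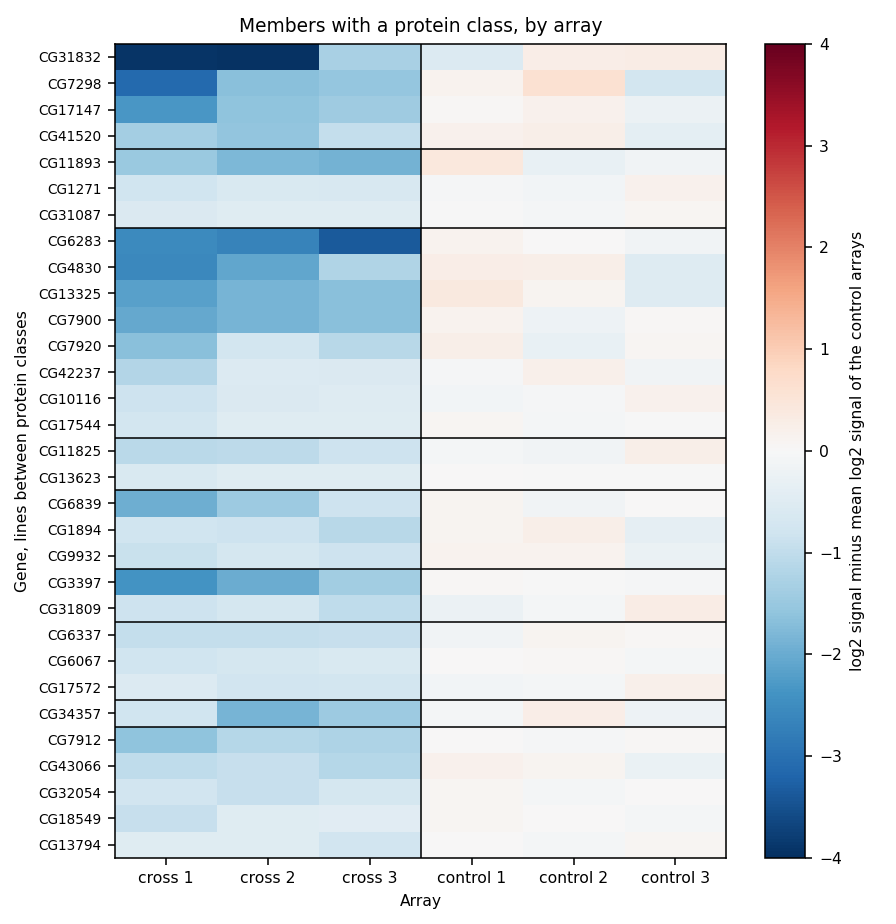
Colour (scale from -4 to 4) gives the log2 signal of each array (columns, 3 cross arrays left of 3 control arrays) minus the mean log2 signal of the control arrays, for the 31 member genes with a protein class (rows, with lines between classes). All cross columns are blue, dark in CG6283 at a log2 fold change of -2.87 and pale in CG31087 and CG13623, both at -0.52, and the darkest cells, of CG31832 in cross replicates 1 and 2, are signals at or below background.

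Relatives of the members did not all lie lower with them. These families were put together after the members were seen, from names in the gene table or known tandem groups. Only relatives with a mean control signal of 300 or more are counted unless stated. That minimum keeps relatives bright only in the control and leaves out those bright only in the cross, which tilts the counts downward. CG9377, listed as a serine protease homologue, was left out in this way, with means of 881 in the cross and 292 in the control and overlapping groups. In the tandem lipase group of CG6283, 3 of 4 genes with a probe set of their own were lower, a count that includes CG6283 itself, which is lower by the rule. CG6296 had 290.3, 326 and 834 in the cross and 1570.2, 961 and 848 in the control, so that cross replicate 3 came close to the lowest control signal. CG6295 had 30201, 34207 and 32789 in the cross and 46176, 41914 and 43825 in the control, a gap of 1.23 that just missed the limit. CG6271 had 323, 484 and 278 in the cross and 169, 486 and 327 in the control, and its groups overlapped.

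Of the chitin-binding tandem group, 7 of 8 genes had a probe set of their own and 2 reached the minimum, both of them members. Among the dimmer ones CG7290 had 134, 96.4 and 105 in the cross and 242, 292 and 279.7 in the control, a gap of 1.804, and it was kept out only by its mean control signal of 271. CG7248 had a log2 fold change of -1.43 ± 0.55 without reaching the gap, CG7252 and CG17145 were at or below background on most arrays, and the groups of CG17826 overlapped.

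In the SLC6 tandem group CG13794 stood apart from the others, as the log2 fold changes of CG13793, CG13795 and CG13796 were 0.30 ± 0.23, -0.01 ± 0.22 and -0.07 ± 0.40, with overlapping groups. The ecdysteroid kinase-like family, with 43 genes at the minimum, had 27 lower and 16 higher, with a median of -0.10 and a range of -1.72 to 1.17. CG11893 had the most negative value among them. The 46 genes listed as serine protease homologues split into 24 lower and 22 higher, with a median of -0.01. They were gathered by name, so genes of other kinds may be among them. Both families hold 2 members each, which are lower by the rule. Over all 9778 genes at the minimum signal the median was 0.01 and 48.6% were lower. The families were not tested against these values.

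**Figure D3:**
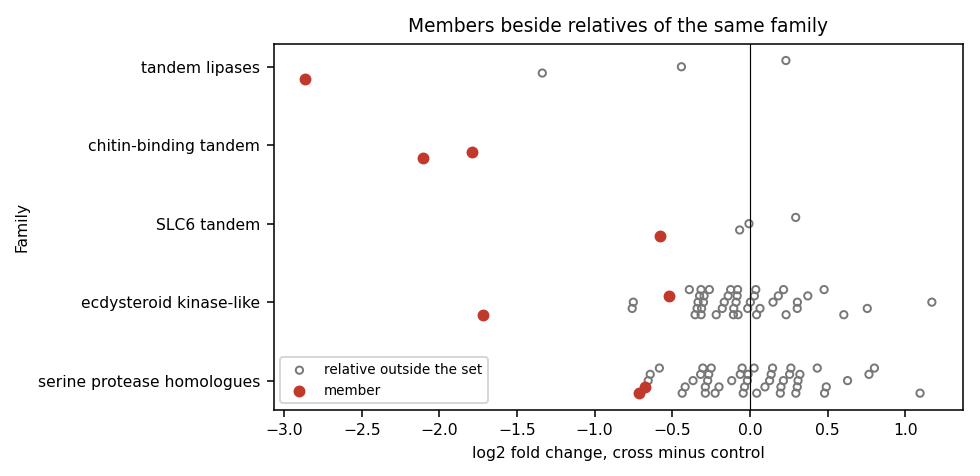
Log2 fold change, cross minus control (x axis), of each gene with a mean control signal of 300 or more in 5 protein families (rows), with members of the set in filled red and relatives outside it as open circles. The red point of CG6283 lies at -2.87 and that of CG11893 at -1.72, while the open circles of the ecdysteroid kinase-like and serine protease homologue rows lie on both sides of 0.

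Members lay on all the large chromosome arms. Arm 3R held 24 of the 79 genes, or 2.43% of its 987 measured CG-numbered genes at the minimum signal, arm 2R held 16 (2.08%), X held 13 (1.89%), 3L held 14 (1.81%) and 2L held 12 (1.54%), and chromosome 4 held 0 of 13. The share of members on 3R was 30.4%, where 24.6% of measured CG-numbered genes lay. These shares were not tested, since the members were chosen with the values known. Gene order was taken from the Release 6 assembly and used only to say which genes adjoin.

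In 3 pairs, with 6 genes, the members were no more than 5 steps apart in gene order. There were 4 such pairs among the 57 genes of the upward set and 19 among 168 named genes of the downward set. Larger sets hold more close pairs, and no share over all measured CG-numbered genes was counted. The counts are therefore not compared. Both genes of a pair met the limits in 0 of the 3 pairs after quantile scaling and in 1, that of CG7912 and CG7920, after median centring. CG7912 and CG7920 were direct neighbours on 3R. CG7912 was described above, and CG7920 had 135, 255 and 197 in the cross and 506, 347 and 448 in the control. CG44251 and CG13321 on 2R had 1 gene between them. CG44251 had 662, 694 and 761 in the cross and 1004, 1078 and 992 in the control, and CG13321 had 5213, 5123 and 6454 in the cross and 9129, 9265 and 9646 in the control. CG4645 and CG32642 on X had 4 genes between them, and CG4645 had 3855, 3652 and 3884 in the cross and 6201, 5603 and 6404 in the control. CG32642 was far less even, with 323, 307 and 883 in the cross and 2664, 1237 and 2139 in the control. No class is given here to CG44251, CG13321, CG4645 or CG32642.

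The nearest measured genes on either side of the members, within 5 steps and at the minimum signal, were 126 genes outside the set, and 70 of them (55.6%) had a negative log2 fold change, against 48.6% of all 9778 genes at that signal. Their median was -0.04, against 0.01 over all those genes. The 126 leave out the members, while the values over all genes include them. This lowers the flanking shares by construction, so no difference is read from them. In 21 of the 126, or 16.7%, all 3 cross signals lay below all 3 control signals, beside 13.9% of all genes, and 1 (0.794%) met the 1.3 limit, beside 2.19%. That 1 was Srg2, next to CG32054 on 3L, with 109, 93.7 and 307 in the cross and 768, 734 and 984 in the control. CG2961, next to CG34408, had means of 252 in the cross and 650 in the control, with groups apart. Near CG7900, the related amidase gene CG7910 had means of 23238 in the cross and 21660 in the control, with overlapping groups.

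Some member genes were read by further probe sets, and these did not always differ in the same direction. For 15 genes there were 32 further probe sets, of which 11 had a mean control signal of 300 or more, and 10 of those 11 were lower in the cross, with a median log2 fold change of -0.40. Of the 21 below that signal 10 were lower, which makes 20 of all 32. The minimum was set on the control signal alone, which tilts the count above it toward lower values, so these counts are not compared. Of all 9778 genes at that signal, 48.6% were lower. For CG7920 the other probe sets had 15997, 19731 and 22192 in the cross and 31925, 29649 and 25367 in the control, and 38835, 45768 and 48738 in the cross and 52759.8, 51463 and 46065 in the control. The log2 fold changes of these were -0.59 ± 0.18 and -0.18 ± 0.15, each smaller than that of the member probe set, and the groups overlapped in the second. A further CG44251 probe set had 2127, 2610.2 and 3341 in the cross and 3879.5, 4327 and 3717 in the control, again lower. CG43367 went both ways: its member probe set had 536, 537 and 498 in the cross and 1019, 984 and 751 in the control, while another had 425, 560.3 and 500.2 in the cross and 295, 326 and 379 in the control, higher in the cross with groups apart. For CG41520 the other probe sets at that signal had log2 fold changes of -0.45 ± 0.27 and -0.16 ± 0.18, with overlapping groups. Of the 80 member probe sets, 12 are of a type that may read several transcripts.

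The member probe sets spanned a wide range of signal, which bears on precision and, between different probe sets, does not rank transcripts. Mean control signals ran from 301 to 16897, with 30 probe sets below 1000, 34 from 1000 to 5000 and 16 at 5000 or more. The median log2 fold changes of these bands were -1.06, -0.94 and -0.76. The highest mean control signals were those of CG42397 and CG13947. CG42397 had 10379, 8655 and 10537 in the cross and 17495, 18830.3 and 14367 in the control. CG13947 had 6678, 8315 and 5547 in the cross and 20878, 15266 and 13887 in the control, read by a probe set type that may cross-react. No class is given here to either gene, and in both the lowest cross signal was well above background. CG44008 had 8449, 7674 and 9388 in the cross and 13935, 13095 and 14410.2 in the control, a log2 fold change of -0.70 ± 0.14. CG15784 had 8441, 7609 and 8647 in the cross and 11762, 15117 and 13556 in the control, a log2 fold change of -0.71 ± 0.15. CG13321, given above with its neighbour, was the other of the 5 with the highest control signals. After median centring only CG13947 of these 5 met the limits, and after quantile scaling all of them did.

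**Figure D4:**
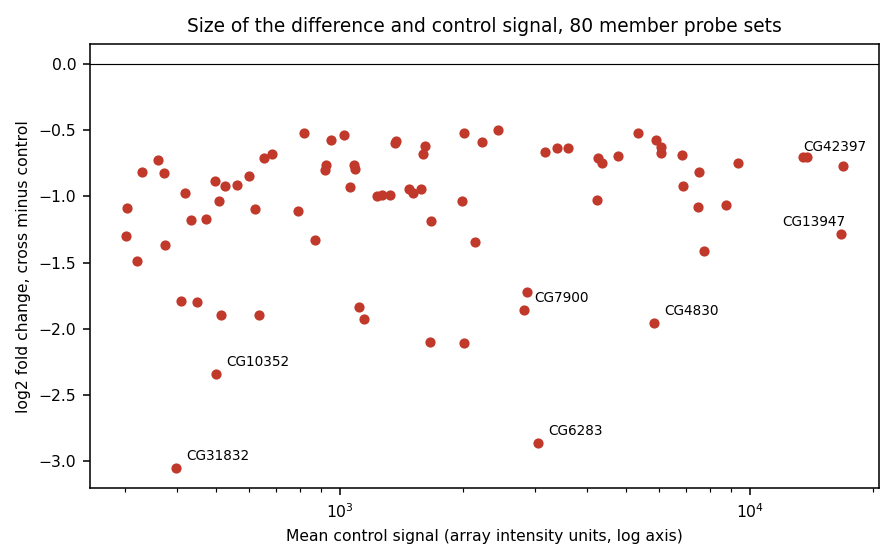
Log2 fold change, cross minus control (y axis), against the mean control signal (x axis, array intensity units, log scale) for the 80 member probe sets. CG42397, at the far right, lies at -0.77, CG6283 lies at -2.87, and the value of CG31832 rests on 2 cross signals at or below background.

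At the limit itself, the members just inside were CG44153, CG18549 and CG44251, each with a gap that rounds to 1.3. CG44153 had 250.3, 268 and 137 in the cross and 408, 358 and 349 in the control, and CG18549 had 3224, 4284 and 4395 in the cross and 6377, 6077 and 5721 in the control. Just outside were CG32982, CG14615 and CG9631, each with a gap of 1.29. CG32982 had 179, 245 and 291 in the cross and 460, 451 and 376 in the control. CG14615 had 1253, 1243 and 1071 in the cross and 2045, 1619 and 2118 in the control, and CG9631 had 1810.1, 1718 and 1712 in the cross and 2337, 3127 and 2375 in the control. No break in the values separated the genes inside from those outside.

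Within each group the members did not follow the order of the arrays seen in the other CG-numbered probe sets at that signal. Among the members, cross replicate 3 was the highest of the cross arrays in 40 of 80 (50%), against 25.8% of 4130 others, and cross replicate 1 was the lowest in 31 (38.8%), against 22.3%. Control replicate 3 was the lowest control array in 41 members (51.2%), against 28.0% of the others, of which 55.2% had it as their highest. The rule looks at the highest cross and the lowest control signal, so only the shares of those describe which arrays set the gaps. The shares of the lowest cross and the highest control signal do not bear on the gaps.

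Markers of tissues and sexes differed between arrays too, and their part in the members' values was not tested. In whole flies, fewer cells of a type and less RNA per cell cannot be told apart. As a reference for the counts below, 48.6% of all 9778 genes at the minimum control signal were lower in the cross. That minimum was not set for the marker lists, and their counts were not tested against this share. Of 22 gut genes measured, 20 had a negative log2 fold change, with summed signals of 588745 to 817085 in the cross and 735447 to 879825 in the control. Of 17 egg chamber and yolk genes, 12 were lower, with sums of 493738 to 896245 in the cross and 611187 to 841781 in the control, and among 20 genes of the testis or accessory gland 18 were higher, with sums of 310556 to 509306 in the cross and 254512 to 342892 in the control. Of 6 fat body genes 4 were lower, with sums of 56730 to 69236 in the cross and 65272 to 72529 in the control, and of 8 haemocyte genes 7 were lower, with sums of 33746 to 36678 in the cross and 33220 to 51655 in the control. All 6 neuron genes were lower, with sums of 36609 to 36910 in the cross and 35646 to 46270 in the control, 2 of 5 muscle genes were lower, with sums of 217743 to 442598 in the cross and 145935 to 385689 in the control, and 4 of 6 Malpighian tubule genes were lower, with sums of 53889 to 57226 in the cross and 61503 to 65564 in the control. Only the tubule sums kept the groups apart. Vha55 was the brightest gene in them, with 28948, 26386 and 29806 in the cross and 37018, 32955 and 33376 in the control. Irk2 and CAH3 of that list were higher in the cross, with log2 fold changes of 0.13 and 0.10. Every measured marker was above background on all arrays except 1 of the fat body genes. Control replicate 3, the lowest control array in 41 members, had the lowest of the 3 control sums in 6 of the 8 lists, by a small margin in the gut list (735447, with 740492 the next), the middle one for egg chamber and yolk (722053) and the highest for testis and accessory gland (342892).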

How the data were processed

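Total RNA of 6 samples of 25 male and 25 female whole flies was labelled with biotin from 2 ug and hybridised to 1 Affymetrix Drosophila Genome 2.0 array each, per the labels' protocols. The values are probe set intensities on a linear scale, as the authors deposited them, 1 value per probe set and array. How probes were summarised and scaled is not stated in the labels read here. With the highest and lowest 2% of signals set aside, the mean was 2498.6 to 2499.9 on every array. No scanner file or detection call was used.

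Affymetrix controls (183 probe sets) were dropped. The platform annotation gave 1 gene for 13647 probe sets, several for 402 and none for 4720. Of the 13647, 13544 matched the Release 6 gene table by gene ID, 90 by an older symbol and 13 not at all. That table gave current names, chromosome arms and gene order only. Signals were taken to log2(signal + 1), and differences, cross minus control, with their SE came from limma 3.58.1 (R 4.3.3), with eBayes moderation under a constant prior, 2-sided p-values and Benjamini-Hochberg adjustment over 18769 probe sets; the fit was tested on simulated data. The size of these fold changes is uncertain at low signals, where it depends on the pseudocount. Tables were handled with Python 3.11.15 and pandas 2.3.3.

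The members, lists, families and classes were chosen with earlier results of these data known, so members get no p-value. All 6 signals are given for the 15 members with the widest gap, the 5 with the highest control signals, members no more than 5 steps apart in gene order, up to 4 members of each class of 3 or more, and the 3 probe sets on either side of the limit. Relatives, nearest genes and other probe sets of members were named after their values were seen. Classes were to come from protein sequence comparison, and promoter motifs were to be counted, but protein and promoter tables were not used here, so classes rest on gene table synonyms and textbook knowledge. The alternatives were other scalings, limits, pseudocounts, priors and filters, the replicate block, and leaving out each array. Same-numbered cross and control arrays did not deviate together (r = -0.0225, 0.000661 and -0.0972), and differently numbered ones had r of -0.0722 to 0.0888. With 3 arrays per group these values cannot exclude a pairing, and the labels do not say whether the numbers pair samples.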

Additional observations from a re-analysis of the deposited data

How the results depend on the processing

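The count of member probe sets was 80 as given. It was 55 after quantile scaling, with 50 of them shared with the 80, and 51 after median centring, with 46 shared. With a gap of at least 1.0, 1.5 or 2 it was 461, 29 or 9, with no minimum control signal 123, and with a mean control signal of 1000 or more 50. Leaving out 1 array gave 102 to 191, which is in part the construction of the rule, since fewer arrays are easier to separate. Without probe sets that may read several transcripts it was 68, and with 1 probe set per gene 73. The median log2 fold change, -0.93 over the 80, was -0.49, -1.41 and -1.90 at gaps of at least 1.0, 1.5 and 2, by construction of the limits, and lay between -1.09 and -0.80 under the other settings with all arrays and between -0.95 and -0.86 with 1 array left out. The replicate block left it at -0.93. Across all probe sets, limma called 0 (constant prior), 112 without the dimmest 33.3% of probe sets and 147 with a trended and robust prior. The cause of these differences was not tested. The other scalings, the pseudocount of 16, the replicate block and leaving out each array gave 0 calls. Whether the replicate numbers pair samples is not known, so nothing further is read from the block. Of 957 single-member fold changes under the alternatives, 952 moved by less than the SD between replicates, 5 moved by more, and 0 changed sign. These counts were in part fixed in advance. The trended prior, the replicate block and the filter of dim probe sets leave a fold change unchanged by construction. Because the rule keeps each member's groups apart, leaving out an array or raising the pseudocount cannot change its sign. Signals near background limit the 9 members with a cross signal there.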

Other observations

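A further 3 probe sets met the same limits but lay outside the set because the CG number of the platform annotation has since been replaced. CG13800 and CG33232 are both now Svil, a gene of the villin and gelsolin family of actin-binding proteins. The probe set annotated as CG13800 had 711, 657 and 778 in the cross and 1414, 1163 and 1105 in the control. That annotated as CG33232 had 241, 273 and 288 in the cross and 389.7, 485 and 425 in the control. The other Svil probe sets did not separate the groups, with log2 fold changes of -0.59 ± 0.28, -0.02 ± 0.11 and 0.00 ± 0.16 (SE), so the probe sets of this gene differed among themselves. CG32773 is now listed as a long non-coding RNA and had 152, 168 and 277 in the cross and 718, 390.0 and 537 in the control.

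Of 1320 probe sets with several genes or none in the annotation and a mean control signal of 300 or more, 54 met the limits, 40 with none and 14 with several. The widest gap among them was 5.16, with mean signals of 403 ± 38.9 in the cross and 2754 ± 395 in the control (SD, n = 3 each). They have no gene name here and belong to no comparison above.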
